A study of Mus musculus with 12 samples.

Results

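The genes described here are the receptor for the growth factor CSF1, a set of transcription factors that build the macrophage lineage, and the macrophage surface receptor EMR1. They are *Csf1r*, *Spi1*, *Cebpa*, *Cebpb*, *Maf*, *Runx1*, *Irf8*, *Mitf* and *Adgre1*, a list of 9 symbols chosen by name, and all 9 were among the 13232 genes analysed. Their RNA was measured by sequencing of total RNA in bone marrow-derived macrophages, cells grown in culture from mouse marrow with M-CSF, which is the protein made by the *Csf1* gene. The mice were wild type (WT) C57B6/J animals fed a high-fat diet (HFD) or a normal diet (ND). Marrow of both diets was grown in DMEM with 10% FBS and M-CSF at 20 ng/ml, and from day 4 in a serum-free macrophage medium with the same M-CSF. The libraries compared come from cells held at 1% oxygen for 1 h on day 7, with 3 libraries per diet. The 6 other labelled libraries, at normal oxygen, were not analysed here, so nothing below describes the response to hypoxia. Diet composition, feeding time and the animals' age are not given in the sources used here. The labels do not say whether the libraries of a diet come from separate mice, so p-values measure the spread between libraries, which may be technical.

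CSF1R is a receptor tyrosine kinase that macrophages and their precursors need to survive and divide. PU.1, encoded by *Spi1*, opens myeloid enhancers together with C/EBP factors and RUNX1, and *Csf1r* is one of its classical targets. IRF8 favours monocytes over granulocytes, c-MAF helps to hold macrophages in a differentiated, non-dividing state, and MITF drives lysosomal and osteoclast genes.

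The values are normalized counts, that is, estimated reads per gene divided by a size factor per library, with no correction for gene length. Estimated depth was 19046400 to 22805200 reads in ND and 23017000 to 24491500 in HFD. Rank correlations across genes were 0.9917 to 0.9955 between libraries of a diet and 0.9897 to 0.9944 between diets, and no 2 libraries held the same values. On the first principal component of 10794 genes (43.3% of the variance) ND replicate 3 scored 3.43, beside HFD replicate 1 at 1.33, while ND replicates 1 and 2 scored -14.0 and -13.5 and HFD replicates 2 and 3 scored 11.3 and 11.4. ND replicate 3 and HFD replicate 1 thus each stood apart from the rest of their diet. Leaving out ND replicate 3 gave 233 genes past the threshold of the test used below, against 2 without HFD replicate 1 and 0 to 2 over the fits without any one of the other 5 libraries. Calls that appear without ND replicate 3 therefore rest on dropping the ND library nearest to HFD, and are given as values, not as support. Calls with limma array weights, which count each library by its fit to its group, are treated alike. The smallest weight was 0.441 for ND replicate 3 and the largest 3.09 for HFD replicate 2. Markers fitted the labelled cell type: 20 of 22 macrophage and monocyte markers were among the genes analysed, led by the lysozyme gene *Lyz2* at 216365 to 267532. None of the 6 B cell, 6 T and NK cell, 7 erythroid and 6 mast cell and basophil markers was among them. Neutrophil markers (6 of 10 analysed) summed to 1712 to 2455 in ND and 2109 to 3430 in HFD.

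None of the 9 genes passed the test between diets, limma on log2(value + 1) with Benjamini-Hochberg adjustment over all genes at a threshold of 0.05 (0 of 9, against 0% of the 13232 genes). At an unadjusted p under 0.05 there were 2 of the 9, *Mitf* with a positive and *Maf* with a negative difference, against 10.6% of all genes. The libraries of the 2 diets did not overlap for 2 of the 9, *Mitf* and *Adgre1*, against 14.5% of all genes, and in both HFD lay above ND, as for 7.44% of all genes. None of the 9 had HFD below ND without overlap, against 7.07% of all genes. The median difference of the 9 genes (HFD minus ND) was 0.027 on the log2 scale, beside -0.0034 for all genes. Their median absolute difference was 0.10, beside 0.092. As a set the lineage genes thus differed between the diets about as much as any gene did. In bulk RNA, fewer cells of a type and less RNA per cell cannot be told apart.

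**Figure D1:**
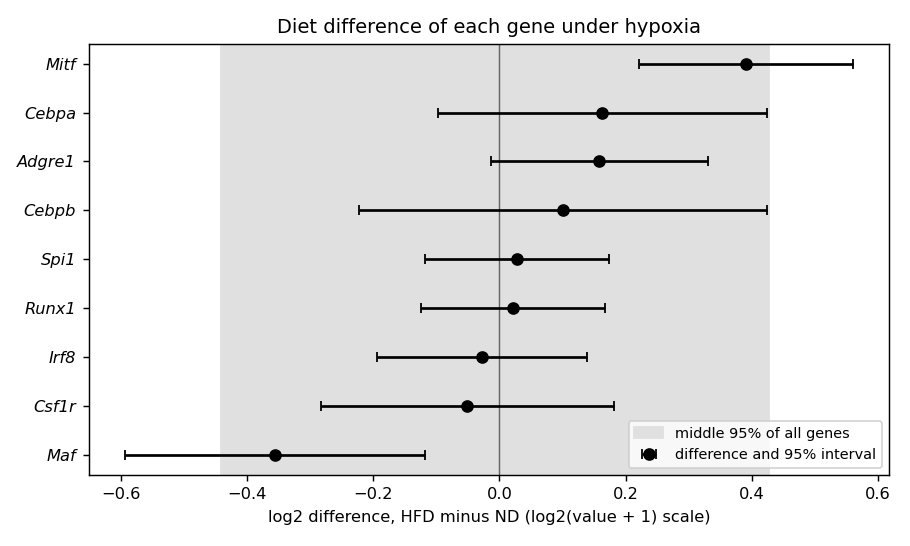
Difference between the diets of each gene under hypoxia, HFD minus ND on the log2(value + 1) scale, as a point with its 95% interval (limma, not adjusted for the number of genes, n = 3 libraries per diet). Grey marks the range from -0.44 to 0.43 that holds 95% of all genes. *Mitf* at 0.39 and *Maf* at -0.36 are the outermost points and lie inside that range.

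Per kilobase of exon (GENCODE M21 gene models), the 9 genes spanned a 24.5-fold range of level. *Adgre1* and *Csf1r* were by far the highest, at means over the 6 libraries of 8985 ± 700 and 8747 ± 776 normalized counts per kb (SD, n = 6), which placed them 87th and 89th of 12936 genes with a length. Their order was not fixed: *Adgre1* exceeded *Csf1r* in 3 of 6 libraries, which were the 3 HFD libraries. Next came *Maf* (1703 ± 285) and *Spi1* (1536 ± 69.6), with *Maf* above *Spi1* in 4 of 6 libraries, then *Cebpa* (1318 ± 183), below *Spi1* in 6 of 6. *Mitf* (893 ± 142), *Cebpb* (803 ± 127) and *Irf8* (745 ± 44.8) were not separated, since *Mitf* exceeded *Cebpb* in 5 of 6 libraries and *Cebpb* exceeded *Irf8* in 4 of 6. *Runx1* was lowest at 367 ± 16.2 per kb, under *Irf8* in 6 of 6 libraries by a factor of 1.83 to 2.22. The level per kb depends on which exons the authors counted, and their annotation is not given in the sources used here.

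**Figure D2:**
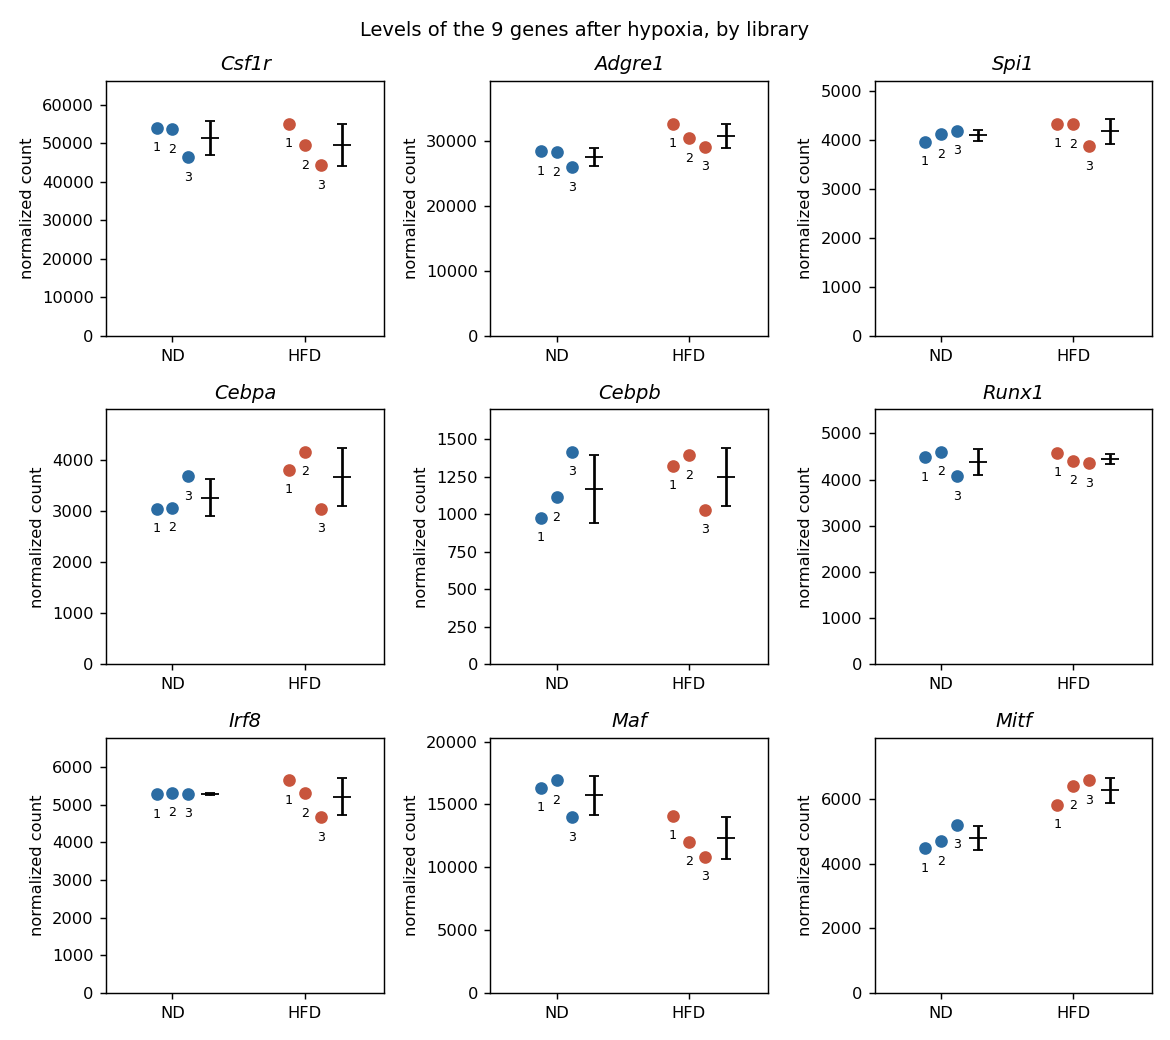
Normalized count of each gene in the 6 hypoxia libraries, on linear axes that start at 0, one panel per gene. Points are libraries with their replicate number, and bars are the mean and SD of 3 libraries. Only *Mitf* and *Adgre1* have every HFD library above every ND library, and *Maf* misses the reverse by ND replicate 3 (13970) and HFD replicate 1 (14084).

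Both surface receptors were abundant, and only *Adgre1* separated the diets. *Csf1r* (chr18:61100598-61132149, plus strand, mm10) stood at 54005, 53702 and 46355 in ND replicates 1 to 3 and at 55142, 49487 and 44323 in HFD replicates 1 to 3. The highest and the lowest library were both HFD, so the diets overlapped fully. The difference was -0.051 on the log2 scale (SE 0.10, limma adjusted p 0.902), and its 95% interval of -0.28 to 0.18 covers ratios of HFD to ND from 0.822 to 1.13. Without HFD replicate 3 the difference was 0.028. After quantile normalization it was -0.21 (unadjusted p 0.0275, limma adjusted p 0.418), while scaling to the column total gave -0.063. The sign thus turned with HFD replicate 3 and the size with quantile normalization. The lowest *Csf1r* libraries, HFD replicate 3 and ND replicate 3, had the highest summed level of 10 proliferation genes, at 24191 and 22016 against 17827 to 20533 in the other libraries, and the part of this in the *Csf1r* values was not tested. On the opposite strand 873 bases of *Csf1r* exon overlap *Hmgxb3*, which averaged 760 in ND and 724 in HFD, and the strand setting of the authors' counting is not given in the sources used here.

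*Adgre1* (chr17:57358691-57483527, plus strand, mm10) encodes EMR1, an adhesion-type receptor long used to identify mouse macrophages. It stood at 28364, 28246 and 25890 in ND replicates 1 to 3 and at 32633, 30387 and 29047 in HFD replicates 1 to 3. Every HFD library lay above every ND library, and the gap between the nearest ones (28364 and 29047) was small beside the spread within each diet. The difference was 0.16 (SE 0.077, limma adjusted p 0.520), with a 95% interval of -0.014 to 0.33. After quantile normalization it was 0.053 and after scaling to the column total 0.146, so its size depended on quantile normalization. *Adgre1* and *Csf1r* can also be set against each other inside each library. There the size factor of the library cancels, though quantile normalization would not. The ratio of their normalized counts was 0.525, 0.526 and 0.559 in ND and 0.592, 0.614 and 0.655 in HFD, again without overlap. The exact two-sided permutation test gave p = 0.1, the smallest that 20 assignments of 3 against 3 allow. It is 1 of 3 such ratios, all chosen after the values were seen, and adjusted over the 3 the p was 0.15.

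The gene of PU.1, *Spi1* (chr2:91082390-91115756, plus strand), was among the steadiest. It read 3973, 4124 and 4198 in ND and 4342, 4324 and 3877 in HFD, with HFD replicate 3 the lowest of the 6. Its difference was 0.027 (SE 0.065, 95% interval -0.12 to 0.17, limma adjusted p 0.914), and without HFD replicate 1 it was -0.0012. *Runx1* (chr16:92601466-92826149, minus strand), whose protein pairs with CBFB to bind DNA in blood-forming and myeloid cells, read 4483, 4596 and 4066 in ND and 4574, 4409 and 4349 in HFD. All 3 HFD values fell between the lowest and the highest ND value. The difference was 0.022 (SE 0.065, 95% interval -0.12 to 0.17, limma adjusted p 0.932), and without ND replicate 3 it was -0.031.

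*Irf8* (chr8:120736358-120756694, plus strand) had close means and overlapping libraries. The ND libraries were nearly equal at 5276, 5327 and 5292, a coefficient of variation of 0.491%. That is below the counting error of up to 1.49% for this gene, closer than counting alone would usually give, and is no measure of how much ND libraries vary. The HFD libraries ran from 5649 in replicate 1 through 5308 in replicate 2 to 4677 in replicate 3, a coefficient of variation of 9.47%. The spreads were not compared by a test. The mean difference was -0.028 (SE 0.074, 95% interval -0.19 to 0.14, limma adjusted p 0.923), and without HFD replicate 3 it was 0.048. Dendritic cell markers, which depend on IRF8 in vivo for part of the lineage, were represented by *Batf3* and *Clec10a*, 2 of 10 listed, which summed to 935 to 1086 in ND and 639 to 937 in HFD. Their part in the *Irf8* values was not tested.

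The libraries of the diets overlapped for both C/EBP genes. *Cebpa* (chr7:35119293-35121928, plus strand), needed to form the granulocyte and monocyte lineage, read 3054, 3068 and 3688 in ND and 3817, 4163 and 3052 in HFD. ND replicate 3 lay with HFD replicates 1 and 2, and HFD replicate 3 lay with ND replicates 1 and 2. The difference was 0.16 (SE 0.12, limma adjusted p 0.665, alternatives 0.0498 to 0.980). It passed with array weights (0.33, adjusted p 0.0498), and it was 0.067 when HFD replicate 2 was dropped and 0.29 when HFD replicate 3 was. *Cebpb* (chr2:167688915-167690418, plus strand), an inducible factor of inflammatory macrophages, showed the same exchange of libraries, at 977, 1113 and 1414 in ND and 1321, 1393 and 1031 in HFD. Its difference was 0.10 (SE 0.14, 95% interval -0.22 to 0.42, limma adjusted p 0.852), turning to -0.019 without ND replicate 1 and reaching 0.32 with array weights (unadjusted p 0.0157, adjusted p 0.0975). Counting error was at most 3.20% for *Cebpb*, the gene of the 9 with the lowest normalized counts. Its coefficient of variation was 19.1% in ND and 15.4% in HFD. Within a library there were 3.13, 2.76 and 2.61 counts of *Cebpa* per count of *Cebpb* in ND, and 2.89 to 2.99 in HFD (exact permutation p = 0.5, also 0.5 adjusted over the 3 ratios). *Cebpb* shares 312 exon bases with *Tmem189* on the opposite strand, which averaged 4077 in ND and 4572 in HFD.

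**Figure D3:**
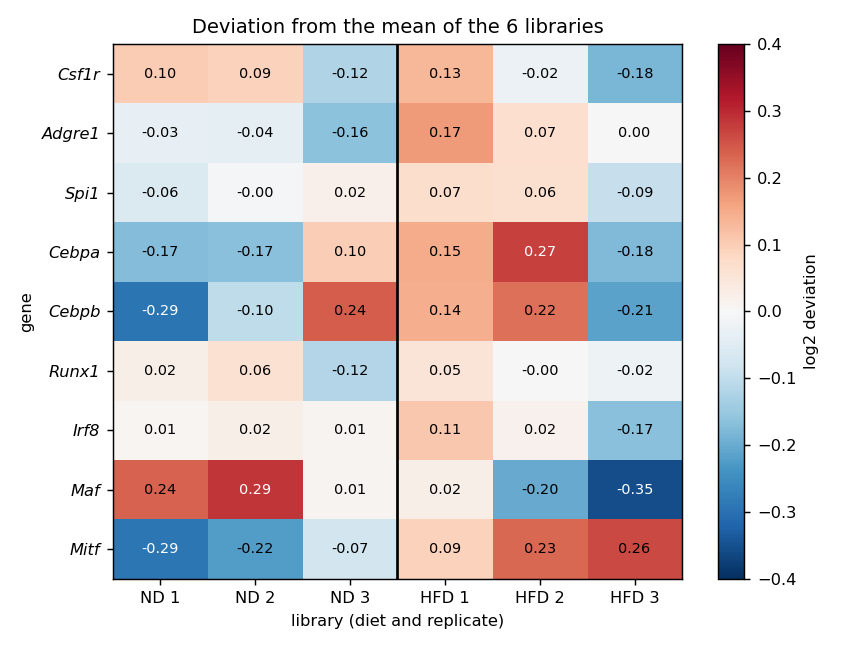
Log2 deviation of each gene in each library from its mean over the 6 libraries (colour and number), with a line between the diets. HFD replicate 3 holds the lowest value of 5 of the 9 genes, and HFD replicate 1 the highest of 4. *Cebpa* and *Cebpb* are high in ND replicate 3 and HFD replicates 1 and 2, while *Maf* and *Mitf* run opposite to each other.

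*Maf* (chr8:115682942-115707794, minus strand) had the most negative difference of the 9 genes. It read 16336, 16911 and 13970 in ND and 14084, 12051 and 10853 in HFD. Only ND replicate 3 and HFD replicate 1 overlapped, and the other libraries separated by diet. The difference was -0.36 (SE 0.11, 95% interval -0.59 to -0.12 before adjustment for the number of genes, limma adjusted p 0.305), a ratio of means of 0.783. It was negative whichever library was left out, at -0.46 to -0.27, and passed the threshold with limma array weights (-0.40, adjusted p 0.0151, over its 14 alternatives 0.0151 to 0.882). Those weights scale each library by how well it fits its group, and 3 of the 9 genes passed with them, against 8.56% of all genes. Stromal markers were lower by value too: *Col1a1*, *Col1a2* and *Col3a1*, the 3 of 7 that were analysed, summed to 177 to 549 in ND and 51.8 to 337 in HFD, and their part in the result was not tested. On the opposite strand 440 exon bases overlap *Gm15655*, at means of 709 in ND and 664 in HFD.

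*Mitf* (chr6:97807052-98021349, plus strand) had the largest difference of the 9 genes and the smallest p. The gene has several start sites that give proteins with different first exons, and the table sums them, so which start was used is unknown. Because the results turn most on *Mitf*, the 250 bases before each of its 3 RefSeq starts (GRCm38.p6, plus strand) are shown, with motif matches in capitals.
Mitf start 1, chr6:97806808-97807057: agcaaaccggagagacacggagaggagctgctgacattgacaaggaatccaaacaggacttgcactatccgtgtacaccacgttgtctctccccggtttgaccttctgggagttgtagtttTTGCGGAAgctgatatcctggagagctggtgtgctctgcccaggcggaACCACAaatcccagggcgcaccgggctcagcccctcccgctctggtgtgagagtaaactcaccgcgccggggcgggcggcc
Mitf start 2, chr6:97929567-97929816: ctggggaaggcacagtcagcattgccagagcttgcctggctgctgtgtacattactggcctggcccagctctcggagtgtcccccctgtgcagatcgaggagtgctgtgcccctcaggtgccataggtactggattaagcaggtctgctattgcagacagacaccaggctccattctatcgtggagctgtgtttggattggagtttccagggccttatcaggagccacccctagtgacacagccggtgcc
Mitf start 3, chr6:97991533-97991782: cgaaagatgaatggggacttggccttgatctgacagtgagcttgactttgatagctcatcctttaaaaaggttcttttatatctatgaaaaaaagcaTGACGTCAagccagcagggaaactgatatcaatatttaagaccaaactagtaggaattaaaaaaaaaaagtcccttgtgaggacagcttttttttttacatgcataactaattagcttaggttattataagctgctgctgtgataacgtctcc
The 7 motifs searched on both strands were GAGGAA (PU.1), TTGCNNAA (C/EBP), TGTGGT (RUNX), GAAA, any pair of bases and again GAAA (IRF), CACGTG and CATGTG (E-boxes bound by MITF) and TGACGTCA (the cyclic AMP response element). The first window held TTGCGGAA 129 bases before the start, a C/EBP match found in 9.57% of 32536 such windows, and ACCACA 81 bases before it, a RUNX match found in 14% of them. The window of start 3 held TGACGTCA, 153 bases before the start, which 1.56% of windows hold. The window of start 2 held none of these letters. No matches overlapped. They are descriptions of sequence and do not show binding.

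*Mitf* read 4477, 4693 and 5204 in ND and 5831, 6415 and 6577 in HFD. Every HFD library lay above every ND library, with the nearest pair at 5204 (ND replicate 3) and 5831 (HFD replicate 1). The means were 4791 ± 374 and 6274 ± 392 (SD, n = 3), a ratio of 1.31. The difference was 0.39 (SE 0.076, 95% interval 0.22 to 0.56 before adjustment), the 35th smallest p of 13232 genes, with a limma adjusted p of 0.181. It stayed between 0.34 and 0.45 when any library was left out. It passed without ND replicate 3 (0.45, adjusted p 0.0196), as did 1.76% of all genes, but not without HFD replicate 1 (0.44, adjusted p 0.133), and it passed with array weights (0.45, adjusted p 0.00506). Over all 14 alternatives the adjusted p ran from 0.00506 to 0.860. Counting error was at most 1.51% per library.

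The ratio of *Mitf* to *Maf* counts joined the genes with the most positive and the most negative difference. It was 0.274, 0.277 and 0.373 in ND and 0.414, 0.532 and 0.606 in HFD (exact permutation p = 0.1, the smallest possible, 0.15 adjusted over 3 ratios). The diets did not overlap, and the distance between ND replicate 3 and HFD replicate 1 was smaller than the range within either diet. The pair was picked for its opposite differences, so this ratio describes them and adds no separate evidence.

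The other genes of the MITF family, which encode related lysosomal regulators, had smaller differences and overlapping diets. They were named after their values were seen. *Tfe3* was at 3500 ± 42.2 in ND and 3592 ± 54.2 in HFD (difference 0.037), *Tfeb* at 1622 ± 178 and 1786 ± 202 (0.14), and *Tfec* at 580 ± 41.3 and 551 ± 42.2 (-0.073; SD, n = 3 each, limma adjusted p 0.684 to 0.853).

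Osteoclast genes, several of them known targets of MITF, were mostly higher by value in HFD, and none passed. Of 12 listed, 10 were analysed, 8 with a positive difference, a median of 0.34 beside -0.0034 for all genes, and 5 positive and 1 negative at an unadjusted p under 0.05, against 10.6% of all genes in either direction. The diets did not overlap for 4 of the 10, 3 with HFD above and 1 below, against 14.5% of all genes. *Atp6v0d2*, a subunit of the lysosomal proton pump, read 7578, 9128 and 8486 in ND and 10912, 12969 and 12461 in HFD. The diets did not overlap, and the difference was 0.53 (SE 0.089, limma adjusted p 0.131). It passed without ND replicate 3 (0.54, adjusted p 0.0341) and with array weights (0.63, adjusted p 0.00461), with 0.00461 to 0.760 over its alternatives. *Mmp9*, a secreted gelatinase, was lower in level and more variable, at 63.9, 137 and 175 in ND and 234, 320 and 258 in HFD (difference 1.21, SE 0.31, limma adjusted p 0.270), and passed without ND replicate 3 (1.51, adjusted p 0.0350, alternatives 0.00903 to 0.879), while without ND replicate 1 its difference was 0.79 (adjusted p 0.524). *Mmp9* is also a neutrophil granule gene. All 6 analysed neutrophil markers (*Ltf*, *Ngp*, *S100a8*, *S100a9*, *Lcn2* and *Mmp8*) had positive differences, with a median of 0.30 and 1 of 6 at an unadjusted p under 0.05. That one, the collagenase gene *Mmp8*, read 443, 463 and 452 in ND and 707, 1032 and 834 in HFD (0.90, the 2nd smallest p of all genes, limma adjusted p 0.113). The part of neutrophil RNA in these differences was not tested.

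The most abundant osteoclast-list gene, *Gpnmb*, overlapped between diets, at 190516 ± 14522 in ND and 204985 ± 9558 in HFD (0.11, limma adjusted p 0.778). Its difference was 0.17 without ND replicate 1 and 0.069 without HFD replicate 2. The next 3 genes were named after their values were seen. The one with HFD below ND was *Itgb3*, the integrin beta chain of the osteoclast adhesion receptor, at 573, 598 and 548 in ND and 468, 507 and 471 in HFD (-0.25, SE 0.076, limma adjusted p 0.318). *Dcstamp*, which encodes a fusion receptor and was high in ND replicate 3, read 454, 538 and 1310 in ND and 1149, 1297 and 1500 in HFD (0.93, limma adjusted p 0.357). The RANK gene *Tnfrsf11a*, the receptor for the osteoclast-forming signal, did not overlap, at 3735 ± 303 and 4511 ± 228 (0.27, limma adjusted p 0.279). Summed over the 10 genes the list stood at 197752 to 221904 in ND and 217258 to 238128 in HFD. Most of that sum was *Gpnmb* (181365 to 215897 per library), so it says nothing about the other genes. The part of osteoclast-type cells in the *Mitf* difference was not tested.

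Receptors for CSF-type growth factors had differences of both signs. Of 11 listed ligands and receptors 7 were analysed and none passed. The diets did not overlap for 4 of the 7, 3 with HFD above and 1 below (14.5% of all genes, 7.44% above and 7.07% below), and the median difference was 0.052. *Kit*, the stem cell factor receptor of early progenitors and mast cells, read 226, 134 and 117 in ND and 73.4, 72.4 and 104 in HFD, the most negative of the list (-0.88, SE 0.25, limma adjusted p 0.284). Of 8 progenitor markers *Kit* was the only one analysed. *Csf2rb*, the beta chain shared by the GM-CSF, IL-3 and IL-5 receptors, read 7567, 7797 and 7027 in ND and 8483, 8882 and 8140 in HFD (0.19, limma adjusted p 0.365). *Csf2rb2*, a close relative in sequence, read 7649, 8425 and 7457 and then 8859, 8928 and 8649 (0.17, limma adjusted p 0.404). How the authors counted reads that match both genes is not given in the sources used here, so both values are uncertain. The cells' own *Csf1*, also named after its values were seen, was low, at 151 ± 38.8 in ND and 118 ± 24.7 in HFD (-0.34, limma adjusted p 0.644), in a medium that supplied the protein.

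Genes that carry the CSF1R signal mostly had small differences. Of 30 listed 29 were analysed, 23 with a positive and 6 with a negative difference (6470 and 6762 of all genes), a median of 0.043 and none past the threshold. Many of these differences were near 0, and the split was not recomputed under another scaling. At an unadjusted p under 0.05 there were 3 of 29, all positive, against 10.6% of all genes. These were also the 3 without overlap, against 14.5% of all genes, so neither count exceeded the share over all genes. *Fgr*, a SRC-family kinase, read 60.9, 72.4 and 69.7 in ND and 113, 160 and 104 in HFD (0.86, SE 0.18, limma adjusted p 0.197). *Shc1*, an adaptor that couples receptor kinases to RAS, stood at 1452 ± 86.0 and 1752 ± 69.2 (0.27, SE 0.067, limma adjusted p 0.260), and passed without ND replicate 3 (0.32, adjusted p 0.0461, alternatives 0.00995 to 0.879). The abundant *Cbl*, the ubiquitin ligase that turns over activated CSF1R, was at 12501 ± 142 and 12560 ± 671 (0.0054, 95% interval -0.14 to 0.15). *Syk*, a kinase downstream of immune receptors, was at 12015 ± 748 and 12400 ± 875 (0.045, 95% interval -0.13 to 0.22). The sign turned after quantile normalization for both *Cbl* and *Syk*, and after scaling to the column total for *Cbl*, so no direction is given.

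Other myeloid transcription factors held no common direction, with 17 positive and 14 negative differences among the 31 of 38 analysed and a median of 0.029. None passed, and the diets did not overlap for 8 of the 31, 3 with HFD above and 5 below, against 14.5% of all genes (7.44% above and 7.07% below). *Nr1h3*, the oxysterol receptor LXR alpha, read 246, 299 and 312 in ND and 392, 407 and 371 in HFD (0.45, SE 0.11, limma adjusted p 0.239). *Egr1*, an immediate early factor linked to monocyte differentiation, had the smallest p of the list (-0.40, limma adjusted p 0.217), and passed without ND replicate 3 (-0.46, adjusted p 0.0417, alternatives 0.00796 to 0.862). *Zeb2*, a repressor that maintains macrophage identity, was the most abundant at 25230 ± 2673 and 25093 ± 154 (-0.0024, 95% interval -0.19 to 0.19). Partners and relatives of the lineage factors, named after their values were seen, included *Cbfb* at 2670 ± 102 and 2766 ± 208 (0.049) and *Runx2*, without overlap, at 254 ± 11.3 and 301 ± 27.1 (0.24, limma adjusted p 0.431).

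Macrophage marker genes split evenly, with 10 positive and 10 negative differences, a median of 0.0091 and none past the threshold. *Cd14*, the co-receptor for lipopolysaccharide, read 4006, 4019 and 3969 in ND and 3678, 2981 and 3188 in HFD (-0.29, SE 0.078, limma adjusted p 0.281). *Lgals3*, encoding galectin-3, read 62179, 57454 and 69030 in ND and 69711, 81565 and 75855 in HFD (0.27, SE 0.10, limma adjusted p 0.392), with ND replicate 3 and HFD replicate 1 almost equal. After quantile normalization its difference was 0.10 (limma adjusted p 0.722), and with array weights it was 0.35 (limma adjusted p 0.0304). The abundant *Lyz2* (-0.015) and *Mpeg1* (-0.025), the latter encoding a pore-forming protein, overlapped between diets. Over the 5 lists, 0 of 97 genes passed, with 22 at an unadjusted p under 0.05, against 10.6% of all genes. Without ND replicate 3, 9 of the 97 passed, against 1.76% of all genes. Without HFD replicate 1 limma passed 0 of the 97, with 22 at an unadjusted p under 0.05, against 2 and 1670 of all 13232 genes. With array weights 20 passed, against 8.56% of all genes. The lists were chosen with earlier results of these data known.

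**Figure D4:**
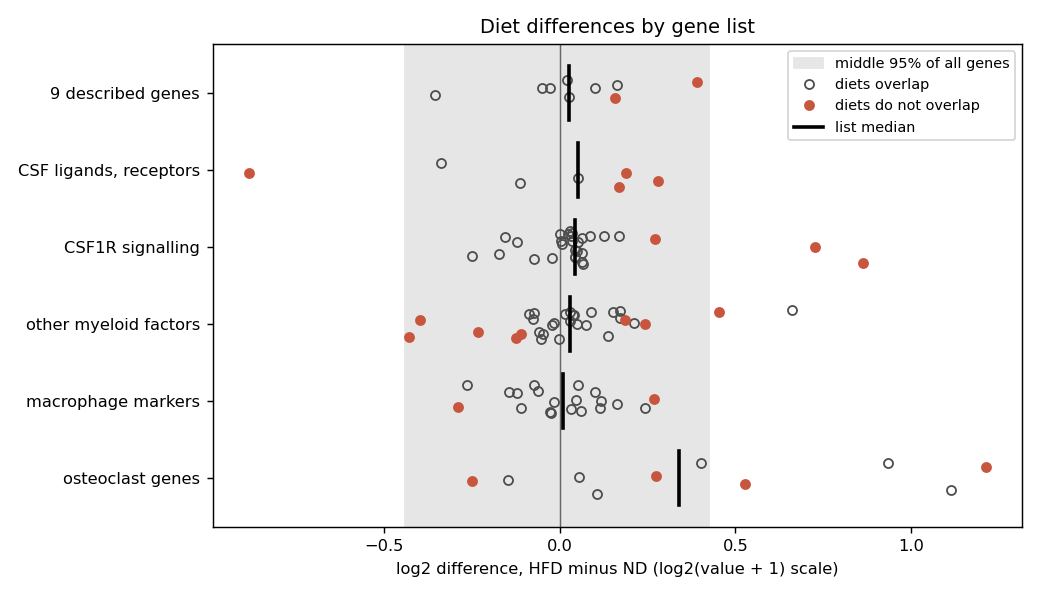
Difference between the diets (HFD minus ND, log2(value + 1) scale) of every analysed gene in the 9 described genes and 5 related lists, one point per gene. Filled points have no overlap between the 3 ND and 3 HFD libraries, black lines are list medians, and grey holds 95% of all genes. The osteoclast list has its median at 0.34, and the other medians lie between 0.0091 and 0.052.

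Genes whose course over the 6 libraries was most like that of *Csf1r*, *Spi1* and *Irf8* were found by the root mean square difference of centred log2 values, among 10793 genes with a mean of at least 100. For *Csf1r* they were *Sh3bp1* (0.0088), *Ctdsp1* (0.017) and *Fam32a* (0.020), beside the 0.119 by which *Csf1r* itself varied. *Sh3bp1* read 1824, 1816 and 1587 in ND and 1860, 1671 and 1488 in HFD, with the same 2 low libraries as *Csf1r*. For *Spi1* they were *Pstpip1* (0.014), *Eif3k* (0.015) and *Ndfip1* (0.017), and for *Irf8* they were *Exo5* (0.013), *Brpf3* (0.017) and *Numa1* (0.019). With 6 libraries and so many genes such matches are a description.

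**Figure D5:**
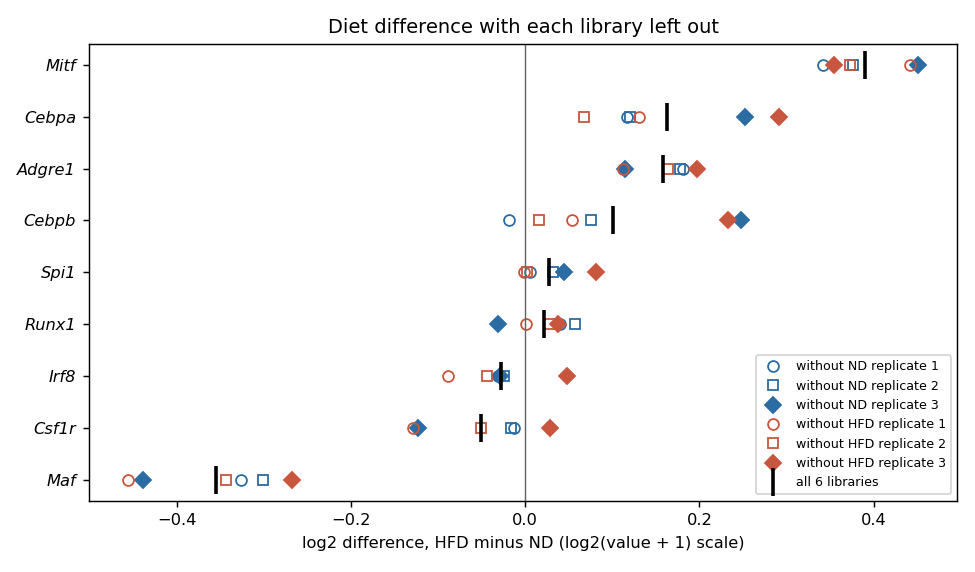
Difference between the diets of each gene (HFD minus ND, log2(value + 1) scale) with all 6 libraries (black bar) and with each library left out in turn (symbols). *Mitf* stays at 0.34 or above and *Maf* at -0.27 or below, *Adgre1* and *Cebpa* stay positive, and the remaining 5 genes lie on both sides of 0.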

How the data were processed

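Per the submitters' processing notes the tools were STAR and Partek and the genome build mm10. Versions, annotation, counting rule, strand setting and filters are not given in the sources used here. Per the labels' protocols, 100 ng of total RNA was depleted of ribosomal RNA, turned into stranded libraries and sequenced as single reads of 75 bases. The deposited signal reads as estimated counts per gene, each library divided by its own size factor. This was taken from the values: a single step per library turned 57.05% to 58.41% of the values from 5 to 1000 into whole reads, to within 0.02. Because the rest were fractional, no count test was run, and limma took the place of a count test. Columns marked NC were taken as ND, and 0 columns were left unmatched.

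The main test was limma 3.58.1 (R 4.3.3) on log2(value + 1), fitted to all genes with no filter, 3 libraries per diet, a trended prior variance and two-sided p-values, and adjusted by Benjamini-Hochberg over all 13232 genes. This scale understates fold changes of low genes. Standard errors are the moderated ones of limma. Ratios were tested with scipy 1.17.1. The members and lists were chosen with earlier results of these data known. Named genes were the 9 members and, of each list, the 2 with the smallest p and the 2 with the highest mean; for *Csf1r*, *Spi1* and *Irf8*, the 3 most alike. Genes named outside this rule were chosen after their values were seen. A gene that this rule names is not reported here. In simulated libraries with 200 of 13232 genes changed, limma called 85.2% of genes changed by 1 and 99.3% of those changed by 2 on the log2 scale. It also called a mean of 9.8 unchanged genes. The noise was drawn for each gene on its own, without shifts of whole libraries, and no change as small as those of the 9 genes was tried. The simulation therefore does not say how often such differences are missed. Exon lengths came from GENCODE M21, which matched 12936 symbols (97.8%), and promoters from RefSeq GRCm38.p6, which matched 5 of the 9 members. Intervals and counting errors cover single-end reads without molecular identifiers, which are not independent molecules. Alternatives were another pseudocount, 2 filters, 2 scalings, limma without trend, array weights, the replicate block and leaving out each library.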

Additional observations from a re-analysis of the deposited data

How the results depend on the processing

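The count of 0 genes past the threshold did not move from 0 with 0.1 as pseudocount, either filter (10 in every library, or a mean of at least 100), quantile normalization, scaling to the column total and limma without trend. It was 1133 with array weights (601 higher, 532 lower in HFD) and 0 to 233 across the 6 fits that leave out a library, 233 being without ND replicate 3. Array weights gave ND replicate 3 the smallest weight (0.441), so these larger counts are not separate lines of support. Of the 9 lineage genes, 3 passed with array weights (*Cebpa* at 0.33, *Maf* and *Mitf*) and 0 to 1 without a library (*Mitf*, without ND replicate 3). Of the 97 related genes, 20 passed with array weights and 0 to 9 without a library. The 20 included *Kit*, *Csf2rb*, *Fgr*, *Nr1h3*, *Cd14* and *Lgals3*. For all of these the cause was not tested. Replicate block: with a term for the replicate number 31 genes passed over the table, 1 of the 97 (*Atp6v0d2*, 0.53, limma adjusted p 0.0358) and none of the 9. Across genes, the deviations of the 2 libraries with number 1, 2 or 3 had correlations of 0.089, -0.11 and 0.027. These show no clear sign of pairing, and so few libraries cannot settle whether the numbers pair them.

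Of 126 alternative values of the 9 genes, 6 had the other sign, 4 newly passed the threshold and 116 did neither. Without 1 library the ranges were -0.13 to 0.028 for *Csf1r*, -0.0012 to 0.081 for *Spi1*, -0.019 to 0.25 for *Cebpb*, -0.031 to 0.057 for *Runx1* and -0.089 to 0.048 for *Irf8*. *Runx1* was -0.0080 with array weights. Of the others that turned, the ranges were -0.025 to 0.049 for *Cbl*, -0.083 to 0.071 for *Zeb2*, -0.090 to 0.064 for *Lyz2* and -0.12 to 0.037 for *Mpeg1*. Quantile normalization moved *Csf1r* to -0.21 (unadjusted p 0.0275, which made 3 of the 9 genes under 0.05), *Adgre1* to 0.053 and *Lgals3* to 0.10, and gave -0.056 for *Cbl*, -0.014 for *Syk* and 0.085 for *Mpeg1*, and scaling to the column total gave -0.0069 for *Cbl*, and the cause was not tested. DESeq2 was not run, since the values are not counts.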
